A study of Homo sapiens with 16 samples.

Results

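The 6 genes that encode the nuclear receptors for retinoids were followed across the 5 conditions of an RNA-seq experiment in OCI-AML3, an established human acute myeloid leukemia (AML) cell line. The genes were chosen by name from the 62700 genes of the table of normalized counts: RARA, RARB and RARG, which encode the retinoic acid receptors (RARs), and RXRA, RXRB and RXRG, which encode the retinoid X receptors (RXRs). Their symbols were each found once. A total of 16 libraries was available. 4 came from untreated cells. 3 each came from cells given all-trans retinoic acid (ATRA) or AM80 (written Am80 here, also called tamibarotene), and 3 each from cells given either retinoid together with 2 inhibitors, GSK-LSD1 and MB3. Treatment lasted 3 h. Both retinoids and GSK-LSD1 were used at 0.1 µM, and MB3 at 100 µM. GSK-LSD1 inhibits the histone demethylase LSD1 (gene KDM1A), and MB3 inhibits the histone acetyltransferase GCN5 (gene KAT2A). No library of cells with the inhibitors alone or with either inhibitor singly was analysed here, so what each inhibitor does, and what they do without a retinoid, cannot be told apart. The control cells were labelled untreated, so an effect of a solvent cannot be told apart from that of the drugs either. All values describe 1 cell line.

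RARs are transcription factors that bind DNA as heterodimers with an RXR. Without ligand the pair recruits corepressors, and when retinoic acid binds the RAR these are exchanged for coactivators, so that target genes are transcribed. ATRA is the natural ligand of all RAR subtypes, whereas Am80 is a synthetic agonist that favours RARα over RARγ. In blood-forming cells RARα is best known for its part in granulocyte differentiation and RARγ for its part in the maintenance of stem cells. RARB is a classical retinoic acid target gene, whose promoter carries a retinoic acid response element. RXRs also pair with other receptors, among them those for vitamin D, thyroid hormone, fatty acids and oxysterols.

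That response element was looked for in the 300 bases around annotated starts (250 before and 50 after) of the RefSeq promoter table, build GRCh38.p14. The half-site with the letters AGGTCA and its related forms (that is GGGTCA, further AGTTCA and lastly GGTTCA) were searched on both strands, in any pairing, as direct repeats with 1, 2 or 5 bases between them, named DR1, DR2 and DR5. The receptor genes had 13 windows, of which RARA had 3, RARB 4, RARG 1, RXRA 2, RXRB 2 and RXRG 1. Only 1 of these windows held such a repeat, a DR5 in the RARB window at chr3:25428013-25428312 on the plus strand. The 250 bases before that start are shown because RARB was the receptor gene with the largest rise after the retinoids, and capitals mark the repeated half-sites, at 53 to 37 bases before the start (chr3:25428210-25428226):

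RARB promoter: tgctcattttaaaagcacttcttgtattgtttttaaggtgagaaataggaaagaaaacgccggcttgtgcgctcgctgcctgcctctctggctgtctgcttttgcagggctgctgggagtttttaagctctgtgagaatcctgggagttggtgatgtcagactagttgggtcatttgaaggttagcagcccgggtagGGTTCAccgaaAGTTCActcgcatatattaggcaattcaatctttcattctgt

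Of all 35116 promoter windows in the table, 31 (0.0883%) held a DR5 of these letters, 46 (0.131%) a DR1 and 14 (0.0399%) a DR2, and 91 (0.259%) held any of them. A match is a description of the letters and not a measured binding site. The windows with a DR5 belonged to 29 genes, 11 of which could be tested. With ATRA 4 of the 11 were higher than in untreated cells (BATF2, CYP26A1, RARB and TRIM31) and none was lower, and with Am80 the same 4 genes were higher and none was lower. A gene was tested if its mean over all libraries was at least 10 normalized counts. RARB (untreated mean 5.19) and CYP26A1 (no reads in untreated cells) passed only through treated libraries. They could thus come out higher but not lower, and the counts against untreated cells are no fair comparison with the shares over all genes. Over all tested genes 12.5% were higher and 12.1% lower with ATRA, and 15.4% and 13.4% with Am80. Against untreated cells the combinations gave 7 higher and 1 lower (ATRA) and 8 higher and 2 lower (Am80) of the 11. Over all tested genes 30.2% were higher and 30.0% lower with ATRA and inhibitors, and 28.0% and 26.6% with Am80 and inhibitors. The inhibitors added to ATRA gave 2 higher and 4 lower of the 11, where 24.9% of tested genes were higher and 24.4% lower. Added to Am80 they gave 4 and 4, where the shares were 19.9% and 19.5%. The genes with a DR5 window were picked by their letters and were named after their values were seen.

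The libraries held 11963898 to 33789718 reads in genes, and the deepest was Am80 replicate 2. Untreated replicate 4 and Am80 replicate 2 stood furthest from the other libraries of their groups: the chi-square per degree of freedom between replicates was 14.3 to 22.7 in the pairs that held one of them and 2.55 to 5.59 in the other pairs. Several values of receptor genes that rest on these libraries are also given without them. All 8 myeloid markers examined, such as MPO, CD33 and SPI1, had a mean of at least 10 normalized counts. T cell, erythroid and epithelial markers were at or near 0, with CD3D, CD2 and HBA1 at 0 reads in every library. Of the 4 B cell markers examined, only 1 had a mean of at least 10 normalized counts. Their sum was low, at 28.6 to 36.9 normalized counts in untreated libraries and 38.1 to 62.5 in treated ones. That shift was not tested and need not be one of the markers as a set. The sum of the 8 myeloid markers was 25359 to 30312 in untreated libraries and 22681 to 26972 in treated ones. The part of either shift in the results for the receptor genes was not tested. The genes of the inhibitors' targets were expressed throughout. KDM1A fell from 2616 ± 83.7 normalized counts (SD, n = 4) in untreated cells to 1961 ± 32.9 (n = 3) with ATRA and inhibitors. KAT2A fell from 1677 ± 110.1 to 1209 ± 81.9 in the same comparison. Of these 2 genes, 1 was also called lower than in untreated cells with ATRA alone and 2 with Am80 alone. The shares of all tested genes that were lower were 12.1% and 13.4%. With either retinoid and inhibitors 2 were called lower, where the shares were 30.0% (ATRA) and 26.6% (Am80). Both inhibitors act on the proteins, so these levels do not check whether they worked.

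Normalized counts are reads divided by a size factor for the library. Differences were tested with limma on log2(normalized count + 1). All 16 libraries entered a single model, p-values were adjusted by Benjamini-Hochberg over the 14643 genes that had a mean of at least 10 normalized counts, and a gene was called at an adjusted p under 0.05 with no limit on the fold change. Nothing in the labels says whether replicates came from separate cultures, so the p-values measure the spread between these libraries, which may be technical. A lower level per cell and fewer cells that express a gene cannot be told apart in bulk RNA. RARA, RARB, RARG, RXRA and RXRB passed the limit on the mean and RXRG did not. RARB passed only through treated libraries, with a mean of 97.0 over all libraries and 5.19 in untreated ones. It could thus be called higher than in untreated cells but not lower.

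The retinoids alone raised all RAR genes and lowered RXRA. Of the 5 receptor genes tested, 3 were higher and 1 was lower with ATRA than in untreated cells, where 24.6% of all tested genes were called (12.5% higher and 12.1% lower). The same 3 were higher and the same 1 was lower with Am80, where 28.8% of tested genes were called (15.4% higher and 13.4% lower). Both comparisons share the untreated libraries. The higher genes include RARB, which entered the test only through treated libraries, so these counts are no fair comparison with the shares over all genes.

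RARB, which encodes RARβ, is located on chromosome 3 (25174332 to 25597932, plus strand, GRCh38, GENCODE release 29). In untreated cells it was barely detected, at 5.6, 3.7, 3.7 and 7.8 normalized counts from 3 to 7 reads a library. The sum was 18 reads, with a 95% Poisson interval of 10.7 to 28.5 that covers counting error only. It reached 141.7, 119.0 and 124.6 normalized counts with ATRA and 158.7, 165.2 and 135.2 with Am80. Every treated library was far above every untreated one. The log2 fold change was 4.43 ± 0.19 (SE) with ATRA (limma, adjusted p = 1.67e-13) and 4.68 ± 0.19 with Am80 (adjusted p = 6.42e-14). The size of this rise depends on the pseudocount because the untreated level is so low: with 5 in place of 1 it was 3.73 and 3.97 on the log2 scale. RARB shares 28 exon bases with TOP2B on the opposite strand, which had 5307 to 21504 reads a library. Whether reads of TOP2B entered the low untreated count of RARB was not tested.

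RARG, which encodes RARγ, lies on chromosome 12 (53210567 to 53232980, minus strand). It stood at 103.2, 104.4, 129.5 and 129.6 normalized counts in untreated cells, at 218.8, 202.7 and 211.0 with ATRA, and at 239.5, 234.6 and 263.3 with Am80. The treated and untreated libraries did not overlap. The log2 fold change of RARG was 0.86 ± 0.10 for ATRA (limma, adjusted p = 1.95e-06) and 1.08 ± 0.10 for Am80 (adjusted p = 6.95e-08), which is 1.81-fold and 2.11-fold.

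RARA, which encodes RARα, lies on chromosome 17 (40309192 to 40357643, plus strand). It was the most abundant RAR gene in every condition. Its normalized counts were 1013.8, 960.5, 1045.0 and 818.8 in untreated cells, 1219.6, 1404.3 and 1371.4 with ATRA, and 1374.9, 1029.9 and 1351.0 with Am80. All ATRA libraries were above all untreated ones, whereas Am80 replicate 2 lay within the untreated range. RARA rose 1.39-fold with ATRA (log2 fold change 0.48 ± 0.09, limma, adjusted p = 5.82e-04) and 1.30-fold with Am80 (0.38 ± 0.09, adjusted p = 0.00396). Without Am80 replicate 2 the Am80 value was 0.51 (adjusted p = 8.28e-05), and without untreated replicate 4 it was 0.30 (adjusted p = 0.00718).

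RXRA, which encodes RXRα, lies on chromosome 9 (134317098 to 134440585, plus strand) and had the highest counts of the receptor genes. It was at 8361.6, 7793.3, 8091.0 and 8079.0 normalized counts in untreated cells, at 6298.4, 6427.4 and 6568.1 with ATRA, and at 6399.1, 5171.6 and 6596.7 with Am80. Every retinoid library was below every untreated one. RXRA fell by 0.33 on the log2 scale with ATRA (SE 0.07, limma, adjusted p = 0.00149) and by 0.42 with Am80 (SE 0.07, adjusted p = 1.02e-04). Am80 replicate 2 was the lowest of the 16 libraries, and without it the Am80 fold change was -0.31 on the log2 scale (adjusted p = 0.000487).

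RXRB, which encodes RXRβ, lies on chromosome 6 (33193588 to 33200688, minus strand). Its normalized counts were 239.9, 268.8, 247.9 and 304.7 in untreated cells, 234.3, 270.9 and 280.9 with ATRA, and 285.0, 249.6 and 298.7 with Am80. The ranges overlapped in all pairs of these groups, and no difference passed the test. The 95% confidence interval of the log2 fold change was -0.22 to 0.19 with ATRA and -0.14 to 0.27 with Am80. RXRB shares 244 exon bases with SLC39A7 on the opposite strand, and the strand setting of the counting is not given in the sources used here.

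RXRG, which encodes RXRγ, lies on chromosome 1 (165400917 to 165445355, minus strand) and was at the edge of detection. It had 6 reads over the 4 untreated libraries, 6 over the ATRA libraries, 11 over the Am80 libraries, 2 when inhibitors were added to ATRA and 1 when they were added to Am80. A single library held at most 6 reads. A difference between conditions was not detectable at this depth.

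**Figure D1:**
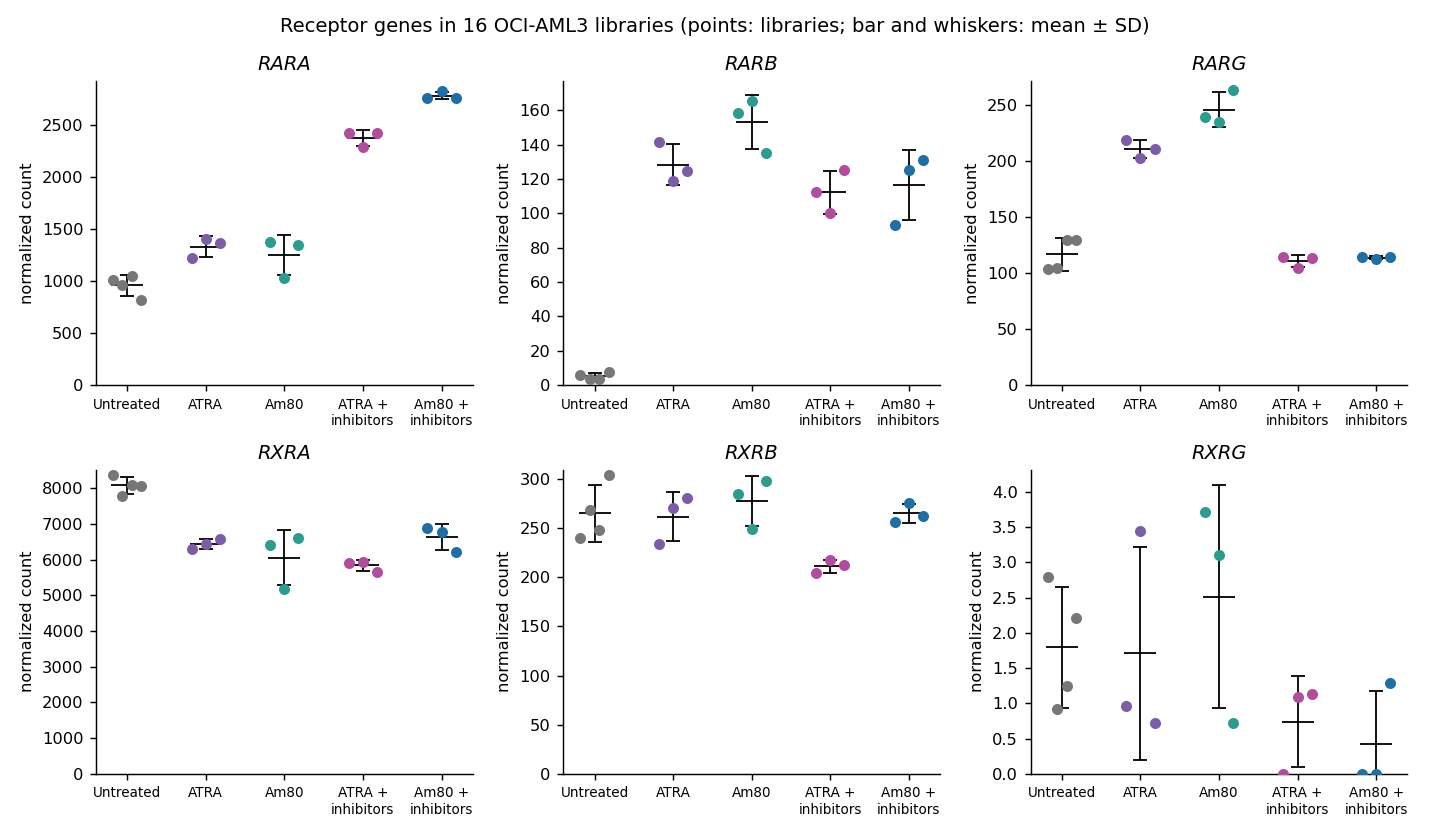
Normalized counts of the 6 receptor genes (vertical axes, linear and starting at 0) in the 5 conditions, with 1 point a library and the mean ± SD as a bar with whiskers. RARB is near 0 in untreated cells and between 93.2 and 165.2 in all treated libraries, RARG is raised only with the retinoids alone, and RARA is highest with the inhibitors added.

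Adding GSK-LSD1 and MB3 moved RARA and RARG in opposite directions. RARA rose further and RARG fell back into its range in untreated cells, with both retinoids. RARB did not pass the test. When the inhibitors were added to ATRA, 1 of the 5 receptor genes was higher and 2 were lower, where 49.3% of tested genes were called (24.9% higher and 24.4% lower). When they were added to Am80, 1 was higher and 1 was lower, where 39.5% of tested genes were called (19.9% higher and 19.5% lower).

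RARA reached 2426.1, 2288.9 and 2424.4 normalized counts with ATRA and inhibitors, and 2766.9, 2825.9 and 2761.5 with Am80 and inhibitors. The lowest of these libraries was well above the highest library with a retinoid alone (1404.3). The inhibitors raised RARA 1.79-fold over ATRA (log2 fold change 0.84 ± 0.10, limma, adjusted p = 1.18e-06) and 2.24-fold over Am80 (1.16 ± 0.10, adjusted p = 1.60e-08). Leaving out Am80 replicate 2 gave 1.03 over Am80 (limma, adjusted p = 2.25e-08). Against untreated cells the combinations were 2.49-fold and 2.91-fold higher (log2 fold changes 1.32 and 1.54, adjusted p = 2.50e-10 and 1.83e-11). The antisense gene RARA-AS1, which shares 556 exon bases with RARA, had 2 to 20 reads a library, where RARA had 727 to 2524. AC080112.3, also on the opposite strand, shares 291 exon bases with RARA and had 13 to 52 reads.

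RARG stood at 114.2, 104.3 and 113.7 normalized counts with ATRA and inhibitors, and at 114.0, 112.7 and 114.6 with Am80 and inhibitors. All 6 values lay within the range of the untreated libraries and below every library with a retinoid alone. RARG fell by 0.92 on the log2 scale against ATRA (SE 0.11, limma, adjusted p = 1.57e-06) and by 1.10 against Am80 (SE 0.11, adjusted p = 1.85e-07). Against untreated cells the log2 fold changes were -0.07 (95% confidence interval -0.29 to 0.15) and -0.03 (-0.25 to 0.19), and neither passed the test.

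RARB stayed far above its untreated level. Its normalized counts were 112.3, 99.99 and 125.0 with ATRA and inhibitors, and 93.2, 125.1 and 131.3 with Am80 and inhibitors. With ATRA the libraries with and without inhibitors overlapped, and with Am80 all libraries with inhibitors were below all those without. How many of all genes separate in this way was not counted. In the comparison with Am80 39.5% of tested genes were called, so the separation alone says little about RARB. The difference between the retinoids in this step was not called (-0.23 to -0.19 on the log2 scale under 11 other settings). Adding the inhibitors gave a log2 fold change of -0.19 (95% confidence interval -0.63 to 0.24) with ATRA and -0.40 (-0.83 to 0.03) with Am80, and neither passed the test (limma, adjusted p = 0.464 and 0.134). For Am80 edgeR on the recovered reads called the fall (adjusted p = 0.0237). Against untreated cells RARB remained higher by 4.24 and 4.28 on the log2 scale (limma, adjusted p = 2.26e-13 and 1.71e-13).

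RXRA was at 5909.5, 5939.5 and 5667.2 normalized counts with ATRA and inhibitors, and at 6897.5, 6787.1 and 6226.0 with Am80 and inhibitors. Both groups lay below all untreated libraries, and the first also below all libraries with ATRA alone. RXRA was lower than in untreated cells by a log2 fold change of -0.47 with ATRA and inhibitors (limma, adjusted p = 1.08e-05) and -0.29 with Am80 and inhibitors (adjusted p = 0.00201). The step from retinoid to combination did not pass the test with either retinoid. With Am80 it was 0.14 (limma, adjusted p = 0.157), and 0.03 without Am80 replicate 2 (adjusted p = 0.737). With ATRA it was -0.14 (adjusted p = 0.137). The ATRA step became a call without Am80 replicate 2 (adjusted p = 0.0447), which enters that comparison through the shared estimate of the spread. It was also called when only the compared groups were fitted (adjusted p = 0.0332), after quantile normalization (-0.26, adjusted p = 0.00604) and after scaling to total reads (-0.29, adjusted p = 0.00338).

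RXRB was at 204.0, 217.4 and 212.5 normalized counts with ATRA and inhibitors, below every other library of the series. With Am80 and inhibitors it was at 256.5, 276.3 and 262.6, within the untreated range. It fell by 0.31 on the log2 scale when the inhibitors were added to ATRA (limma, adjusted p = 0.0204) and by 0.32 against untreated cells (adjusted p = 0.00780). The first call was lost when ATRA replicate 2, ATRA replicate 3 or replicate 1 of ATRA with inhibitors was left out, with adjusted p of 0.0636 to 0.0907, and both calls were lost after quantile normalization (adjusted p = 0.130 and 0.0666).

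Against untreated cells, 4 of the 5 receptor genes were called with ATRA and inhibitors (2 higher and 2 lower), where 60.2% of all tested genes were called (30.2% higher and 30.0% lower). With Am80 and inhibitors 3 of 5 were called (2 higher and 1 lower), where 54.7% were called (28.0% higher and 26.6% lower). The higher genes again include RARB, which entered the test only through treated libraries. Dividing by total reads in place of the deposited size factors lowered the median log2 fold change of all tested genes to between -0.13 and -0.19 in the 4 comparisons that involve a combination and one without inhibitors, and the share of calls that were higher went from about 50.1% to 51.3% down to 29.3% to 35.0%. In Am80 against untreated cells that share went from 53.5% to 39.0%. Under that scaling RARA still rose with the inhibitors (0.69 and 1.04 on the log2 scale) and RARG still fell (-1.07 and -1.23). RXRB with Am80 and inhibitors against untreated cells turned from 0.00 to -0.18, without a call, and RARB with Am80 and inhibitors against Am80 was called (-0.52, adjusted p = 0.0452).

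**Figure D2:**
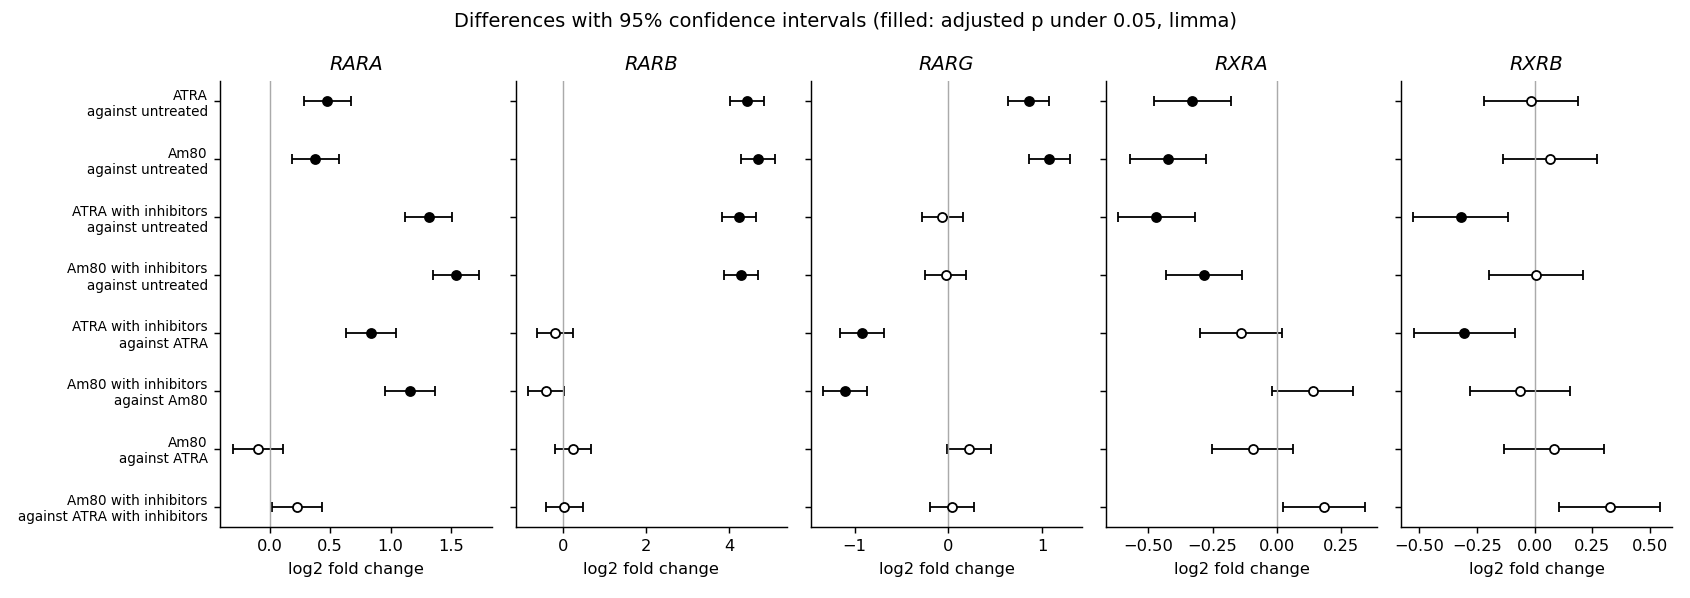
Log2 fold changes of the 5 tested receptor genes (horizontal axes, each with its own scale) in 8 comparisons, with 95% confidence intervals from limma and filled points where the adjusted p was under 0.05. RARA lies right of 0 and RARG left of 0 when inhibitors are added to either retinoid, and no point is filled where Am80 is set against ATRA.

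The study asked whether the retinoids differ, and the doses and times of ATRA and Am80 were matched. None of the 5 receptor genes was called between Am80 and ATRA alone, where 0.239% of all tested genes were called (0.184% higher and 0.0546% lower, 35 genes, with 2042 at an unadjusted p under 0.05). The count over all genes was 458 without untreated replicate 4, 452 without Am80 replicate 3 and 97 without ATRA replicate 3, and it was 0 to 35 without any other library (0 without Am80 replicate 2). None of the receptor genes was called in any of these fits. The 95% confidence interval of the log2 fold change of Am80 against ATRA was -0.31 to 0.11 for RARA, -0.18 to 0.68 for RARB, -0.01 to 0.45 for RARG, -0.25 to 0.06 for RXRA and -0.13 to 0.30 for RXRB. The intervals were widest for RARB, where a difference of 0.68 still lay inside it. The value was -0.10 for RARA and -0.09 for RXRA, and without Am80 replicate 2 it was 0.04 and 0.01.

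With the inhibitors present, the Am80 libraries were all above the ATRA libraries in 3 of the 5 receptor genes. Over all tested genes the libraries did not overlap in 30.2%, and 16.4% were higher with Am80. RXRB differed by 0.33 on the log2 scale (95% confidence interval 0.11 to 0.54), RARA by 0.23 (0.02 to 0.43) and RXRA by 0.18 (0.02 to 0.34). None passed after adjustment over all genes (limma, adjusted p = 0.159, 0.242 and 0.224), and 0% of tested genes were called, with 2656 at an unadjusted p under 0.05 and 114 called by DESeq2. The count over all genes was 646 without untreated replicate 4 and 243 without Am80 replicate 2, neither of which is in the groups compared, and no receptor gene was called in either fit. A fit of only these 6 libraries called all 3 (limma, adjusted p = 0.0275, 0.00689 and 0.0263). Over all genes that fit called 1975 of 14643, and 1381 of them were higher with Am80. RARB and RARG differed by 0.04 each. The effect of the inhibitors was also compared between the retinoids as an interaction. It was 0.33 for RARA (limma, adjusted p = 0.291) and 0.28 for RXRA (adjusted p = 0.255). Leaving out Am80 replicate 2 gave 0.19 for RARA and 0.17 for RXRA. None of the 5 genes was called (0% of tested genes, 2211 at an unadjusted p under 0.05, 27 called by DESeq2 and 41 by limma without Am80 replicate 3).

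For the balance between subtypes, normalized counts were divided by the kilobases of each gene's merged exons in GENCODE release 29, because longer transcripts give more reads. On this scale the level in untreated cells was 729 ± 20.9 per kb for RXRA, 203 ± 21.2 for RARA, 67.7 ± 7.38 for RXRB, 22.8 ± 2.91 for RARG, 1.40 ± 0.52 for RARB and 0.67 ± 0.32 for RXRG (SD, n = 4). Neighbours in that order did not overlap, except RARB and RXRG. The lengths assume that all exons are used, which matters most for RXRA: its merged exons span 11083 bases and its longest coding transcript 1846.

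RARA made up most of the RAR sum per kb in every condition, but its share dipped with the retinoids and came back with the inhibitors. It was 89.3% ± 2.04 in untreated cells, 78.7% ± 2.32 with ATRA and 74.5% ± 3.34 with Am80 (SD). In the combinations it was 90.6% ± 0.47 (ATRA) and 91.6% ± 0.78 (Am80). RARB took 0.635% in untreated cells, 9.76% with ATRA and 11.9% with Am80, then 5.47% and 4.90% in the combinations. RARG took 10.1%, 11.5% and 13.6% in the first 3 groups and only 3.89% and 3.46% in the combinations. RARG was thus the second RAR gene in cells without inhibitors, and RARB stood above it in both combinations on this scale. With the longest coding transcript as length RARB and RARG were about level there (4.25% against 4.37% with ATRA and inhibitors), so that order rests on the length used.

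**Figure D3:**
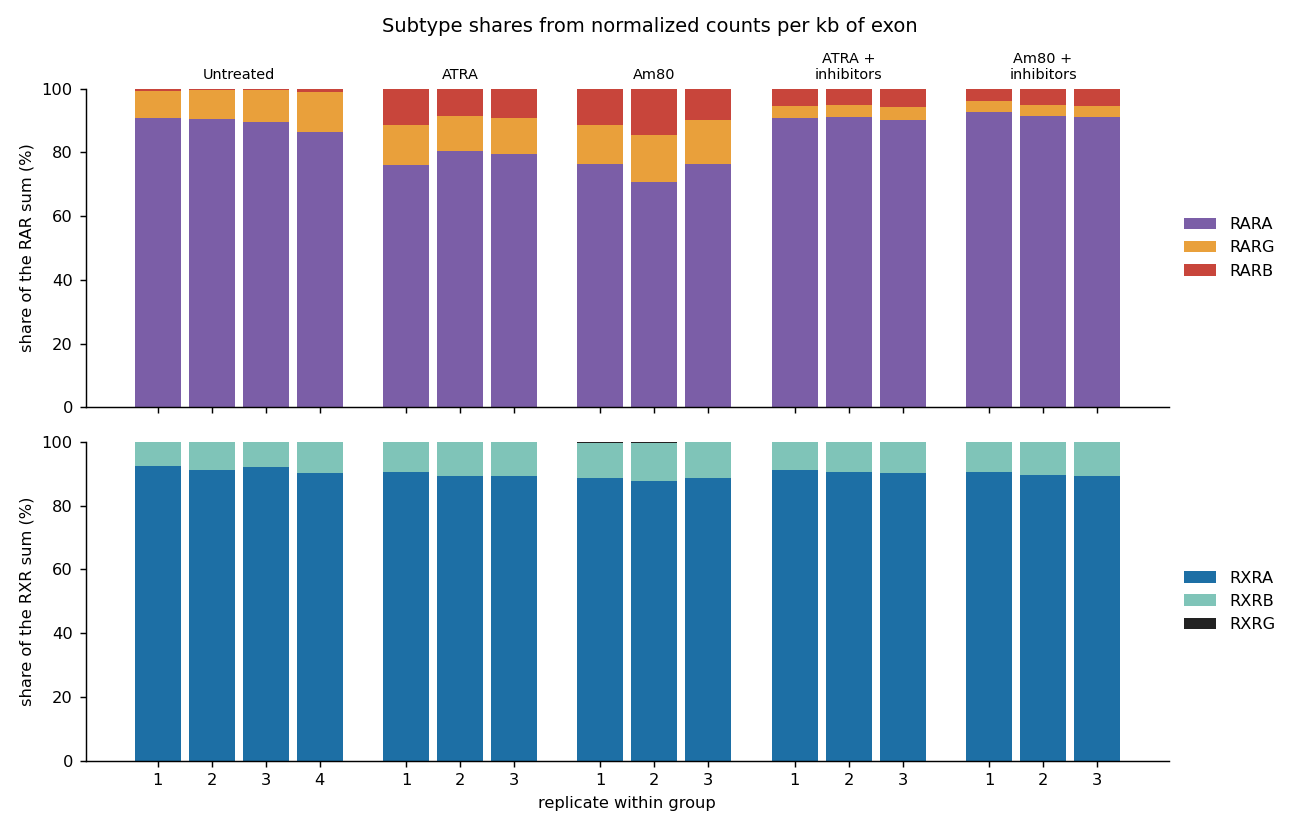
Share of each subtype in the sum of the 3 RAR genes (top) and of the 3 RXR genes (bottom), in percent of normalized counts per kb of exon, with 1 bar a library. The RARB part appears with the retinoids and the RARG part shrinks with the inhibitors, while RXRA keeps between 87.8% and 92.4% of the RXR sum in all libraries.

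The ratios between subtypes within a library were tested with exact two-sided permutation tests over libraries, with the retinoids pooled since 3 libraries against 3 cannot pass, and p-values adjusted over 9 tests. A ratio within a library shows unequal change of its genes and does not depend on the library's size factor, apart from the added pseudocount. RARA per kb exceeded RARG per kb 8.86-fold in untreated cells, 6.81-fold with ATRA and 5.46-fold with Am80, and 23.1-fold and 26.3-fold with ATRA or Am80 and inhibitors. The 6 combination libraries (22.8 to 26.9) did not overlap the 6 libraries with a retinoid alone (4.74 to 7.48). The inhibitors thus shifted the ratio 4.04-fold toward RARA (exact permutation p = 0.005, the smallest these splits allow, adjusted p = 0.018). The drop from untreated cells to a retinoid alone was smaller, -0.54 on the log2 scale (exact permutation p = 0.0286, adjusted p = 0.0367), with overlapping libraries. It lost its call when any of 7 libraries was left out: untreated replicate 1, 2 or 3, ATRA replicate 1, or Am80 replicate 1, 2 or 3.

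The ratio of RARB to RARA rose by 4.13 on the log2 scale with a retinoid (exact permutation p = 0.00952, the smallest possible, adjusted p = 0.018) and dropped by 1.30 when the inhibitors were added (exact permutation p = 0.005, adjusted p = 0.018). Neither set of libraries overlapped. The ratio of RXRA to RXRB fell by 0.40 with a retinoid (exact permutation p = 0.0190, adjusted p = 0.0286), which lost its call without untreated replicate 1, 2 or 3, and rose by 0.18 with the inhibitors (exact permutation p = 0.010, adjusted p = 0.018). Between Am80 and ATRA the RARA to RARG ratio differed by -0.07 and the RARB to RARA ratio by 0.08 on the log2 scale, without a call (exact permutation, adjusted p = 0.615 for both). The RXRA to RXRB ratio was lower with Am80 than with ATRA by a log2 difference of -0.16 (exact permutation p = 0.010, adjusted p = 0.018).

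**Figure D4:**
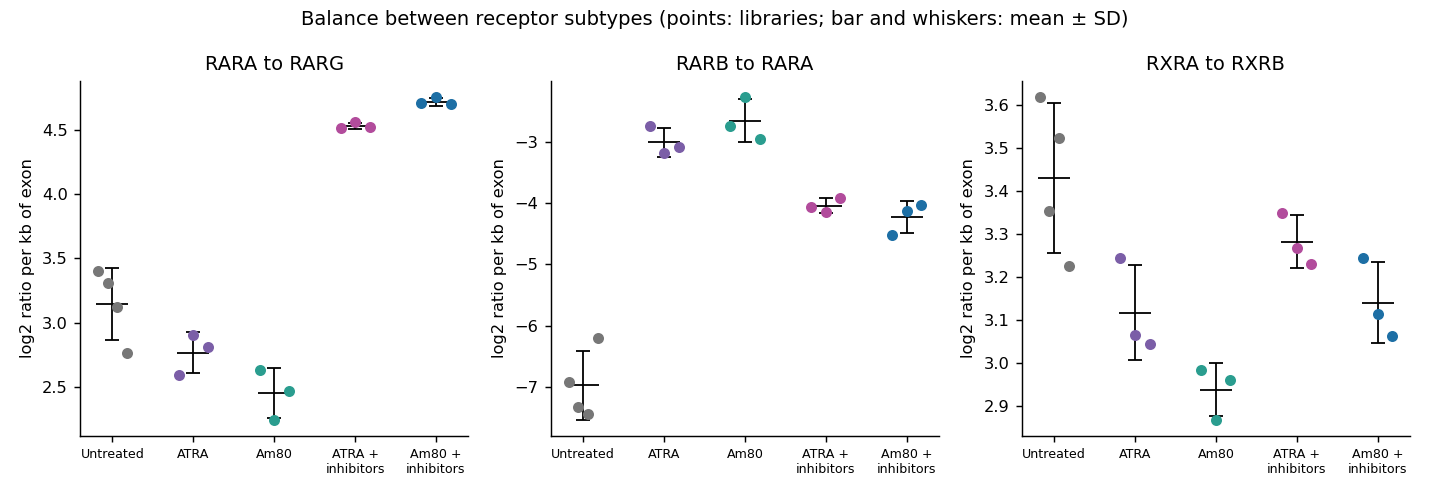
Log2 ratios of normalized counts per kb of exon between receptor subtypes (vertical axes, not starting at 0) in the 5 conditions, with 1 point a library and the mean ± SD. The RARA to RARG ratio of the 6 libraries with inhibitors lies between 4.51 and 4.75, above all others, and the RARB to RARA ratio of untreated cells lies below all treated libraries.

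The sum of the RAR genes per kb was 227 ± 19.99 in untreated cells, 357 ± 16.2 with ATRA and 354 ± 39.8 with Am80 (SD). In the combinations it was 555 ± 20.7 (ATRA) and 642 ± 10.4 (Am80). The sum of the RXR genes was 798 ± 19.4, 648 ± 18.2, 618 ± 75.8, 581 ± 13.4 and 667 ± 32.5 in the same order. The ratio of the RAR to the RXR sum therefore went from 0.285 to 0.552 and 0.573 with the retinoids and to 0.956 and 0.965 in the combinations. Relative to untreated cells this was 1.94-fold and 2.01-fold with the retinoids, and 3.36-fold and 3.39-fold in the combinations. The absolute ratio depends on the length given to RXRA: with the longest coding transcripts it was 0.0798 in untreated cells and 0.265 and 0.270 in the combinations, whereas the fold against untreated cells was 3.32 and 3.38. These sums are given as a description.

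Other genes of the pathway were taken from lists and counted in the same fit. Of 13 receptors that pair with RXR, 10 could be tested, and with ATRA 4 were higher and 1 lower than in untreated cells (Am80, 5 and 1). Over all tested genes the shares were 12.5% and 12.1% with ATRA, and 15.4% and 13.4% with Am80. Over the 10 genes ATRA gave a median log2 fold change of 0.26, against -0.02 over all tested genes. PPARD, a fatty acid receptor, rose by 1.16 (ATRA) and 1.11 (Am80) on the log2 scale, and PPARA by 0.75 and 0.57. The oxysterol receptors NR1H3 (0.47 and 0.43) and NR1H2 (0.35 and 0.43) rose as well, and the thyroid hormone receptor THRA fell (-0.68 and -0.75). The inhibitors added to ATRA raised 2 and lowered 4 of the 10, and added to Am80 raised 2 and lowered 3, where 24.9% of all tested genes were higher and 24.4% lower with ATRA, and 19.9% and 19.5% with Am80. PPARA rose further (0.61 and 0.76) and THRA fell further (-0.75 and -0.69). The vitamin D receptor gene VDR, named after its values were seen, stood at 619 ± 29.2 normalized counts in untreated cells and at 687 ± 22.8 with ATRA, and fell by 1.05 and 0.95 on the log2 scale when the inhibitors were added to ATRA and to Am80. NR1H4, the bile acid receptor, had no reads.

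All 13 coregulator genes were tested, and 6 were higher and 1 lower with ATRA than in untreated cells, 4 higher and 1 lower with Am80, and 9 higher and 1 lower in each combination. The share of all tested genes that were higher was 12.5%, 15.4%, 30.2% and 28.0% in these 4 comparisons. Over the 13 genes the median log2 fold changes were 0.26, 0.16, 0.57 and 0.46, and over all tested genes they lay between -0.0197 and -0.0029. The coactivator gene NCOA3 had log2 fold changes of 1.69 and 1.65 for ATRA and Am80 and rose by a further 0.41 and 0.43 with the inhibitors. NRIP1, which encodes a corepressor that binds receptors with their ligand, rose by 1.19 and 1.20. TBL1XR1, part of the corepressor complex, rose by 0.56 and 0.66, and the coactivator gene NCOA2 by 0.39 and 0.30.

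Of 15 genes for retinoic acid synthesis, breakdown and binding, 10 were tested, with 4 higher and 3 lower with ATRA, and 4 higher and 2 lower with Am80, where 12.5% and 15.4% of all tested genes were higher and 12.1% and 13.4% lower. The inhibitors added to ATRA raised 1 and lowered 4 of them, and added to Am80 raised 0 and lowered 4, where 24.4% and 19.5% of all tested genes were lower. CYP26A1, a retinoic acid hydroxylase with a DR5 in a promoter window as in RARB, had 0 reads in all untreated libraries, 118 ± 3.28 normalized counts with ATRA and 52.0 ± 4.70 once inhibitors were added. CYP26B1, a related hydroxylase, went from 1 read in all untreated libraries to 572 ± 41.0 and then 138 ± 16.5 normalized counts. CYP26A1 and CYP26B1 passed the limit on the mean only through treated libraries. They could be called higher than in untreated cells but not lower, so the count of higher genes is no fair comparison with the shares over all genes. DHRS3, a retinal reductase, had a log2 fold change of 6.41 for ATRA and fell by 0.55 with the inhibitors. STRA6, a retinol transporter, rose by 2.37 with ATRA and 2.05 with Am80 and fell by 2.05 and 1.40 with the inhibitors, and ALDH1A3, a retinal dehydrogenase, fell by 1.09 and 1.21 with the retinoids. CRABP1, a retinoic acid binding protein gene, had no reads. With the inhibitors CYP26A1, CYP26B1 and DHRS3 stayed far above their untreated levels, DHRS3 at 1602 ± 205.1 normalized counts with ATRA against 27.3 ± 6.93 in untreated cells. STRA6 came down to 24.6 ± 11.7 with ATRA, near its untreated 18.6 ± 5.11.

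For each tested receptor gene, the protein-coding genes with the most similar profile were listed by the root mean square difference of log2 levels, each centred on its mean, over the 16 libraries and 10475 genes. The nearest to RARA was TSHZ1 (0.134), followed by SGSH, TFE3, PGD and PLEKHO2. TSHZ1 went from 440 ± 36.7 normalized counts in untreated cells to 646 ± 17.2 with ATRA and 1101 ± 71.9 once inhibitors were added. RARB was nearest to SHE (0.298), FGR, RHBDL3, CEACAM1 and A4GALT, and SHE rose from 19.3 ± 3.16 to 581 ± 17.99 with ATRA. RARG was nearest to CD244 (0.145), ENDOD1, TMEM109, APOBEC3G and OLFML3. CD244 went from 313 ± 38.3 to 570 ± 19.3 with ATRA and 264 ± 18.1 once inhibitors were added. RXRA was nearest to TCF3 (0.0556), PPP6R1, USP20, RBM14 and MMP14, and RXRB to STK16 (0.0822), VPS18, AKR1B1, SNF8 and PSME1. A flat profile would differ from RARA by 0.607, from RARB by 1.93, from RARG by 0.495, from RXRA by 0.191 and from RXRB by 0.166, so the likeness is closest in relation to the receptor's own variation for RARB and loosest for RXRB.

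**Figure D5:**
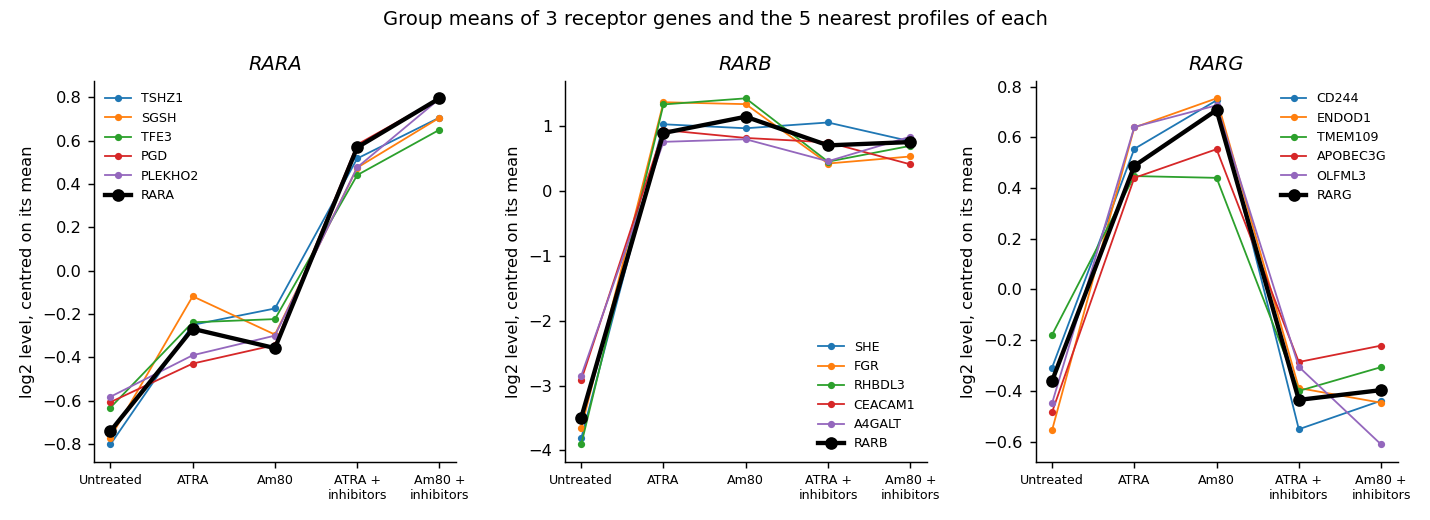
Group means of log2(normalized count + 1), centred on the mean over groups (vertical axes), for RARA, RARB and RARG (black) and the 5 genes with the nearest profile to each (colours). RARA climbs in steps, RARB goes up once and stays, and RARG goes up with the retinoids and back down with the inhibitors.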

How the data were processed

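RNA-seq was analysed in 16 libraries, grouped by their labels. The deposited values are a signal per gene: the authors counted reads per gene on the Galaxy platform and divided them by DESeq2 size factors. The submitters' processing notes name FastQC, cutadapt, STAR, featureCounts and DESeq2. The build, annotation release and strand setting are not given in the sources used here, and the labels and the study's methods name different library kits. Every value came out as whole reads within 0.001 (100% of values), and depth was 11963898 to 33789718 reads. Intervals and floors cover counting error only.

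Values were taken as log2(normalized count + 1), genes with a mean under 10 were left out, and 1 coefficient per group was fitted with limma 3.58.1 (R 4.3.3, mean-variance trend). Fold changes on this scale understate those of low genes. Ratios used exact permutation tests (Python 3.11.15, numpy 2.4.6, pandas 2.3.3). Figures were drawn with matplotlib 3.10.9. Alternatives were pseudocounts of 0.5 and 5, no filter, a mean of 50, quantile and total-read scaling, a fit restricted to the groups compared, edgeR 4.0.16 and DESeq2 1.42.0 on the recovered reads, the replicate number as a block, a 1.5-fold limit, other gene lengths, and each library left out.

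Gene identifiers were all matched to symbols, and 58207 of 62700 to GENCODE release 29, which gave lengths and positions. Promoter sequences are from RefSeq (GRCh38.p14). Beyond the receptor genes and KDM1A and KAT2A, the genes named were up to 5 a list by the change with ATRA, genes without reads, the 5 nearest profiles with a mean of at least 50, and overlapping genes; VDR and the genes with a DR5 window were added after their values were seen. The receptor genes and the lists were chosen with earlier results of these data known. A gene of the coregulator list and a marker gene are not reported here by name.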

Additional observations from a re-analysis of the deposited data

How the results depend on the processing

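The directions and calls of the 5 tested receptor genes in 9 comparisons were recomputed under 11 other settings and without each of the 16 libraries. Of 495 values under other settings 468 kept direction and call, 10 lost a call, 8 gained one and 9 changed sign, and of 720 values without a library 703 kept both, 3 lost a call, 1 gained one and 13 changed sign. The sign changes concern small values without a call. They were RXRB with ATRA against untreated cells (0.052 with the replicate block, -0.068 to 0.062 without a library), RARG with ATRA and inhibitors against untreated cells (0.032, quantile), RARG with Am80 and inhibitors against untreated cells (0.077, quantile, 0.026 with the replicate block, -0.083 to 0.026 without a library) and RXRB in that comparison (-0.18 scaled to total reads, -0.023 with edgeR, -0.00703 with DESeq2, -0.042 to 0.073 without a library). With Am80 and inhibitors against Am80, RXRA (-0.0066) and RXRB (0.011) turned with quantile normalization. Without a library the ranges were -0.17 to 0.036 for RARA and -0.16 to 0.015 for RXRA with Am80 against ATRA, and -0.052 to 0.19 for RARB and -0.0023 to 0.062 for RARG between the combinations. A 1.5-fold limit left 2 receptor genes called in each of the 6 comparisons with untreated cells or retinoid alone (from 4, 4, 4, 3, 3 and 2). It reduced the calls over all genes to 1384, 1490, 4255, 3814, 2861 and 2300 in the same order (from 3609, 4211, 8819, 8004, 7226 and 5778). The fit of only the groups compared called 3 receptor genes and 1975 genes between the combinations, where all libraries gave 0. Between Am80 and ATRA alone the calls over all genes were 35, and 0 without a filter or with only the groups compared, 7 with the 1.5-fold limit, 18 scaled to total reads, 24 with quantile normalization, 88 with edgeR, 344 with DESeq2, 402 with the replicate block and 0 to 458 without a library. Without a library they were 0 to 646 between the combinations. The cause was not tested. Same-numbered libraries of different groups did not deviate together (4 of 30 correlations over 0.1, range -0.11 to 0.19, 2 of 16 libraries closest to their own number), so no pairing by number was seen. With so few libraries a group this cannot show that they are unpaired, and the labels do not say. With the replicate block no call of a receptor gene changed, and the block gave 690 calls over all genes between the combinations. Only untreated cells have a replicate 4, so the block gives that library its own coefficient and in effect removes it. Leaving it out without a block gave 646 calls between the combinations and 458 between Am80 and ATRA alone. All ratio calls were lost with the replicate block. For a retinoid against untreated cells, where 3 pairs cannot pass the threshold, the log2 differences were -0.67 (RARA to RARG), 4.39 (RARB to RARA) and -0.47 (RXRA to RXRB), with adjusted p of 0.321. On adding the inhibitors they were 2.02, -1.30 and 0.18 in the same order, and -0.16 for RXRA to RXRB between Am80 and ATRA. The adjusted p of each was 0.0703 (sign flips of paired differences). All of these were at the smallest p that the pairs allow, so the lost calls do not show weaker differences. Without a library the RARA to RARG ratio with a retinoid ranged from -0.67 to -0.45, the RXRA to RXRB ratio from -0.47 to -0.34, and the RARB to RARA ratio between Am80 and ATRA from -0.015 to 0.15.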
